A study of Mus musculus with 7 samples.

Results

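Secreted synapse organisers of 3 families were followed in cultured mouse hippocampal cells: the C1q-like genes C1ql1, C1ql2 and C1ql3, the cerebellins Cbln1, Cbln2 and Cbln4, and the neuronal pentraxin genes Nptx1, Nptx2 and Nptxr. These 9 genes, of 31053 in the deposited matrices, were taken by symbol, and each symbol matched 1 gene. The set was chosen by family, with earlier results of the same cells in view, and partly selected on measured values: C1ql3 had led a cluster of cells together with Wisp2, and C1ql3 and Nptxr had been seen to rise between DIV3 and DIV7 in glutamatergic neurons. The level of C1ql3 in that cluster, the changes of the 9 genes from DIV3 in glutamatergic neurons, and the differences between classes built on those changes are therefore given as description, with no p-value.

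The cells came from hippocampi of newborn (P0) mice, dissociated with trypsin and grown on coated coverslips in a medium with B-27 and serum. There were 7 single-cell 3′ libraries: a single one from day 1 in vitro (DIV1), and 2 from each later day, which were DIV3, DIV5 and DIV7. No treatment or genotype separated the groups, which differed by day alone. No label says whether the 2 libraries of a day came from separate animals or platings, so the p-values below rest on a spread between libraries that could be technical alone.

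C1q-like proteins are small secreted proteins with a globular C1q domain, and they bind the adhesion receptor Adgrb3 (BAI3) on the receiving side of a synapse. Cerebellins, from the same superfamily, bridge presynaptic neurexins to postsynaptic delta glutamate receptors. Neuronal pentraxins cluster AMPA-type glutamate receptors, and Nptxr is their membrane-anchored relative. In the hippocampus, C1ql2 and C1ql3 are best known from the mossy fibres of dentate granule neurons, where they recruit kainate receptors, and Nptx2 (Narp) is known as an activity-regulated gene.

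The files held 28846 barcodes, with 36226566 to 114119537 UMIs (unique molecular identifiers, 1 per captured RNA molecule) per library. Of these, 26709 barcodes had 500 or more detected genes and at most 10% mitochondrial UMIs, and 26532 remained after 177 called doublets were removed. Between 12 and 37 barcodes were shared by any 2 libraries, over 21 pairs. DIV3 replicate 1 stood apart: it was the deepest, and it held 1578 of the 1666 cells of an unnamed cluster led by Lcn2 and interferon genes, 354 of the 395 cells of 1 pyramidal-like cluster and 1177 of the 1254 cells of 1 cycling cluster. Most changes from DIV3 that passed a test are given with and without it. All 15 genes of the glutamatergic marker list had UMIs in the glutamatergic neuron-like class of every library. Levels below are UMI counts scaled to a total of 1000000 (CPM) over all UMIs of a class in 1 library, for classes with 20 or more cells there. They compare 1 gene between samples, not 1 gene with another.

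The C1q-like genes had sources in neurons and glia, and over all libraries together the other 6 had most of their UMIs in neurons. Neuron-like clusters (dentate-like, pyramidal-like, GABAergic, Cajal-Retzius and neuroblast-like) held 86.9% of the 611 Cbln1 UMIs, 66.8% of the 392 Cbln2 UMIs and 79.5% of the 122 Cbln4 UMIs. They held 65.2% of the 3175 Nptx1 UMIs, 63.1% of the 3085 Nptx2 UMIs and 71.6% of the 9047 Nptxr UMIs. The same clusters held 54.2% of the 395 C1ql2 UMIs, 18.8% of the 17416 C1ql3 UMIs and 4.74% of the 13450 C1ql1 UMIs. These shares follow the number of cells of each class as well as the level in them, and they varied by library. The neuronal share was 10.2% (Nptx2) and 20.0% (Cbln4, 10 UMIs) in DIV3 replicate 1, and 26.5% (Nptx1) and 34.4% (Cbln2) in DIV7 replicate 2. Cbln1 and Nptxr had more than 50% of their UMIs in neurons in each of the 7 libraries. Clusters of these cells were built from all variable genes, so a class set against another is a description and was not tested.

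**Figure D1:**
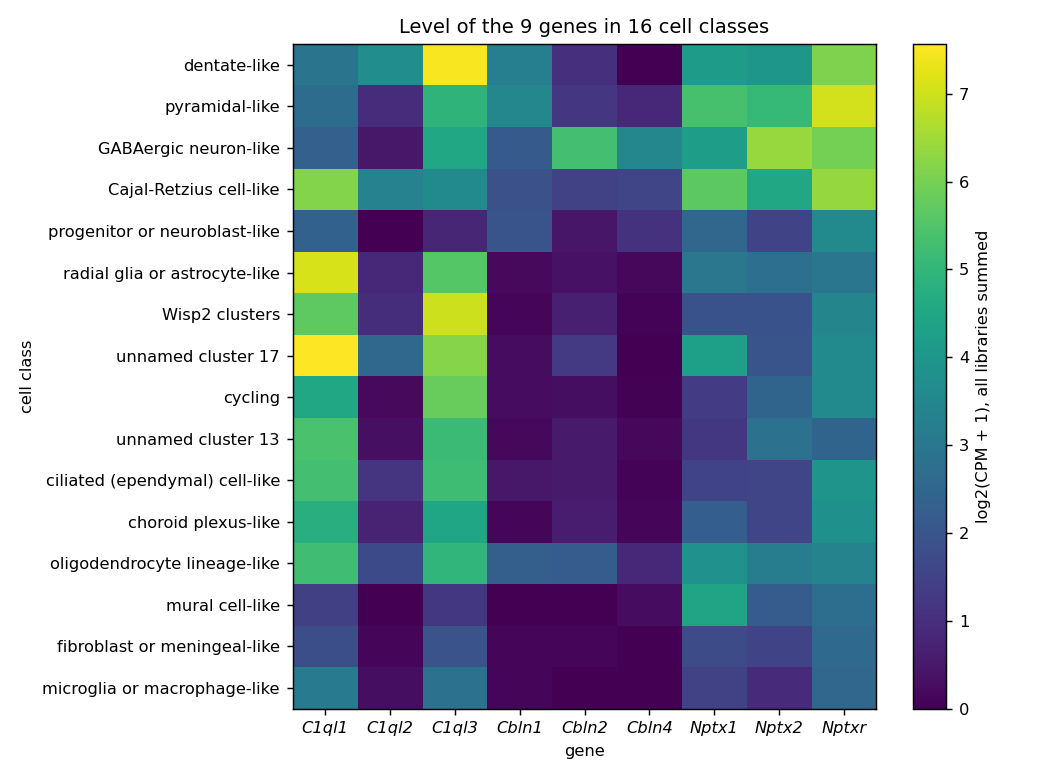
Level of each gene (columns) in 16 cell classes (rows) as log2(CPM + 1), with all libraries summed; colours are to be compared down a column. C1ql3 is brightest in the dentate-like class and the Wisp2 clusters, C1ql1 in unnamed cluster 17 and the radial glia or astrocyte-like class, and Cbln2, Cbln4 and Nptx2 in the GABAergic class.

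C1ql3, which acts with Adgrb3 at excitatory synapses, was highest over all libraries together in dentate-like neurons, the clusters with Prox1 above Neurod6. Its level there was 309 CPM at DIV1 (exact 95% Poisson interval 280 to 340), 23.3 and 83.3 CPM at DIV3 (replicates 1 and 2), 184 and 477 CPM at DIV5, and 372 and 677 CPM at DIV7. Both DIV3 libraries were below every other library, and the DIV5 and DIV7 libraries overlapped. Day means were 53.3 ± 42.4 CPM at DIV3, 330 ± 207 CPM at DIV5 and 525 ± 216 CPM at DIV7 (SD, n = 2 libraries each). Replicate 2 was above replicate 1 on each of these days. At DIV3 the dentate-like mean was below that of the Wisp2 clusters described below (70.7 CPM).

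In pyramidal-like neurons C1ql3 stood at 62.4 CPM at DIV1 (interval 57.3 to 67.8), 3.11 and 10.9 CPM at DIV3, 13.1 and 49.5 CPM at DIV5, and 15.7 and 50.8 CPM at DIV7. DIV3 was again the lowest day, with both libraries under the 5 others. Within DIV3 replicate 1, most pyramidal-like cells belonged to a cluster seen almost only in that library, while another cluster held most of them at DIV5 and DIV7. GABAergic neuron-like cells had 51.7 CPM at DIV1 (interval 41.9 to 63.0) and at most 8.25 CPM in the 6 later libraries. In DIV7 replicate 2 they had 0 UMIs, which allows a level of up to 9.53 CPM (3 UMIs, counting error only).

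C1ql2, the closest partner of C1ql3 on mossy fibres, had 134 of its 395 UMIs in dentate-like neurons. There it measured 2.20 CPM at DIV1 (3 UMIs, interval 0.454 to 6.44), 4.66 and 3.54 CPM at DIV3, 12.9 and 35.5 CPM at DIV5, and 34.6 and 35.9 CPM at DIV7. The DIV5 and DIV7 libraries all lay above the DIV1 and DIV3 libraries. Cajal-Retzius-like cells were next, at 3.72 to 27.6 CPM over 4 libraries, a range that overlaps the dentate-like one. At DIV1, C1ql2 lay beside its own DIV3 level, whereas C1ql3 lay within its own DIV5 to DIV7 range.

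The sequences before the start sites of C1ql2 and C1ql3 are shown because both genes were high in dentate-like neurons at DIV7. They are the 250 bases upstream of the start in RefSeq (build GRCm38.p6), C1ql2 at chr1:120340332-120340581 on the plus strand and C1ql3 at chr2:13010865-13011114 on the minus strand, 5′ to 3′. Capitals mark the match to CANNTG, the E-box that factors of the Neurod type can bind.
C1ql2: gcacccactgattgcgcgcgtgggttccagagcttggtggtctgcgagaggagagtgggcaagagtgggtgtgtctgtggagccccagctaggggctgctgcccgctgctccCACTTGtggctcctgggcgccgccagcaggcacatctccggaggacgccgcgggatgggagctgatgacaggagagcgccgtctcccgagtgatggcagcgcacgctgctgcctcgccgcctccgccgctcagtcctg
C1ql3: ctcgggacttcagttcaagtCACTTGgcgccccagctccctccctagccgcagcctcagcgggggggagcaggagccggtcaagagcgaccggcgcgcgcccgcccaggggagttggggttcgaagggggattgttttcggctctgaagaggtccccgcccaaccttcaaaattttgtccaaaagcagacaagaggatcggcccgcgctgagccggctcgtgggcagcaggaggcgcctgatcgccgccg
Each window held 1 match on either strand, and both matches read CACTTG. Of 32536 windows of the same length, 66.2% held CANNTG and 11.5% held CACTTG, a search added after the 2 windows had been read. The cAMP response element TGACGTCA (1.56% of windows) was in neither, and the SOX-type letters ATTGTT (9.35% of windows) were in the C1ql3 window only. RefSeq's table matched 3 of the 9 genes. The third, Cbln4, also held 1 CANNTG and the letters ATTGTT. A match is a description of letters, not a binding site.

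**Figure D2:**
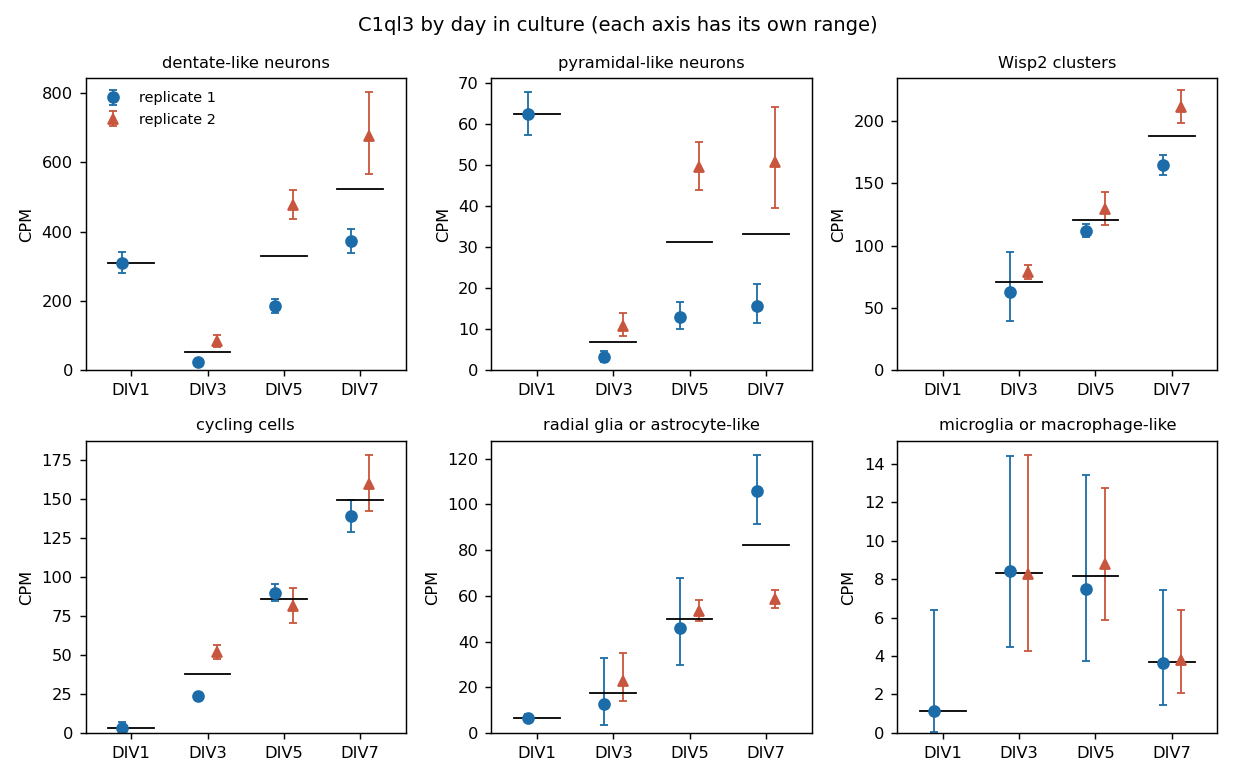
C1ql3 in CPM by day in 6 classes (each axis has its own range); points are libraries with exact 95% Poisson intervals, and bars are day means. Both neuronal panels have their lowest values at DIV3, the Wisp2 clusters, cycling and glial panels run upward from DIV3 to DIV7, and microglia-like cells stay between 1.15 and 8.81.

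Outside neurons, C1ql3 was measured in 2 clusters that had Wisp2 among their 10 leading genes, here the Wisp2 clusters. Wisp2 encodes a secreted matricellular protein of the CCN family. The first was also led by C1ql3 itself, so its high level is part of how it was found. These clusters held 3578 cells and 32.3% of all C1ql3 UMIs. Their share was above that of the neuron-like clusters in 4 libraries (both of DIV7, DIV3 replicate 2 and DIV5 replicate 1). It was below it at DIV1 (0.08% against 90.4%), in DIV3 replicate 1 (1.00% against 5.95%) and in DIV5 replicate 2 (16.6% against 35.2%). They were named by Wisp2 before the rule for cell type names was applied. No gene of the radial glia or astrocyte list was among their leading genes. All 20 genes of that list were still detected in 5 of their 6 libraries, and it was the best-scoring list in both clusters. In the first cluster its score was 0.388, beside 0.212 for the next list, which clears the rule's margin of 1.25 times. In the second it was 0.469 beside 0.426, which does not. The glutamatergic list summed to 108 to 255 CPM in the Wisp2 clusters, against 5794 to 8880 CPM in glutamatergic neuron-like cells.

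C1ql3 rose from DIV3 to DIV7 within the Wisp2 clusters. It measured 62.5 and 78.9 CPM at DIV3, 112 and 129 CPM at DIV5, and 165 and 211 CPM at DIV7, so no 2 days overlapped. Day means were 70.7 ± 11.6, 120 ± 12.4 and 188 ± 32.8 CPM (SD, n = 2 libraries each). C1ql3 was among the leading genes of the first cluster, so the test of its change is not independent of how these cells were grouped. The log2 fold change from DIV3 to DIV7 was 1.27 ± 0.25 (SE), with an adjusted p of 0.00355 (edgeR quasi-likelihood test, Benjamini-Hochberg over 13187 genes), beside 12.2% of all genes that rose, 10.5% that fell and 22.7% called in either direction. Without DIV3 replicate 1, which had 26 of these cells, it was 1.12 with an adjusted p of 0.0152 in edgeR. Most of these cells belonged to the first cluster at DIV3 and DIV5 and to the second at DIV7. In the first cluster alone C1ql3 stood at 80.2 CPM in DIV3 replicate 2 and at 163 and 365 CPM at DIV7, and in the second at 58.7 CPM and at 165 and 184 CPM. In the same sums, the summed level of the radial glia or astrocyte list went from 7716 and 10772 CPM at DIV3 to 20109 and 21998 CPM at DIV7. Its part in the C1ql3 change was not tested.

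Of 26532 cells, 6108 had a Wisp2 UMI, and they were spread over several classes: 31.1% were cycling cells, 31.0% belonged to the Wisp2 clusters, 10.7% to the Lcn2-led cluster and 10.3% to ciliated cells. The DIV1 library held 67 of them, the DIV3 libraries 1733 and 794, the DIV5 libraries 1626 and 384, and the DIV7 libraries 1108 and 396. Outside neuron-like clusters, C1ql3 measured 20.0 CPM in Wisp2-positive cells against 6.92 CPM in Wisp2-negative cells at DIV1. At DIV3 the pair of values was 26.6 against 16.3 CPM in replicate 1 and 56.8 against 28.2 CPM in replicate 2. At DIV5 it was 96.2 against 42.4 CPM and 116 against 34.5 CPM, and at DIV7 138 against 53.8 CPM and 195 against 46.0 CPM. C1ql3 was higher in the Wisp2-positive cells of each of the 7 libraries.

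The same held for the share of cells with a C1ql3 UMI when each cell was thinned to 3000 UMIs and its Wisp2 status read after thinning. Over all libraries, 646 of 3000 Wisp2-positive cells (21.5%, exact 95% binomial interval 20.1 to 23.0%) and 1552 of 16483 Wisp2-negative cells (9.42%, interval 8.97 to 9.87%) had 1. Unthinned, with median depths of 15969 and 11137 UMIs, the shares were 45.4% and 19.8%. The background of free RNA is read from microglia or macrophage-like cells, which should lack C1ql3: 9 of 850 thinned cells, or 1.06% (interval 0.485 to 2.00%), had a C1ql3 UMI, and 3.83% had 1 unthinned at a median of 14072.5 UMIs. Thinned shares were above this background in Wisp2-positive and Wisp2-negative cells alike, and dentate-like neurons had 21.2% on the same scale. Leaving out the Wisp2 clusters gave 17.8% against 7.23%, and within those clusters the shares were 27.6% and 22.7%. All intervals cover counting error only.

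**Figure D3:**
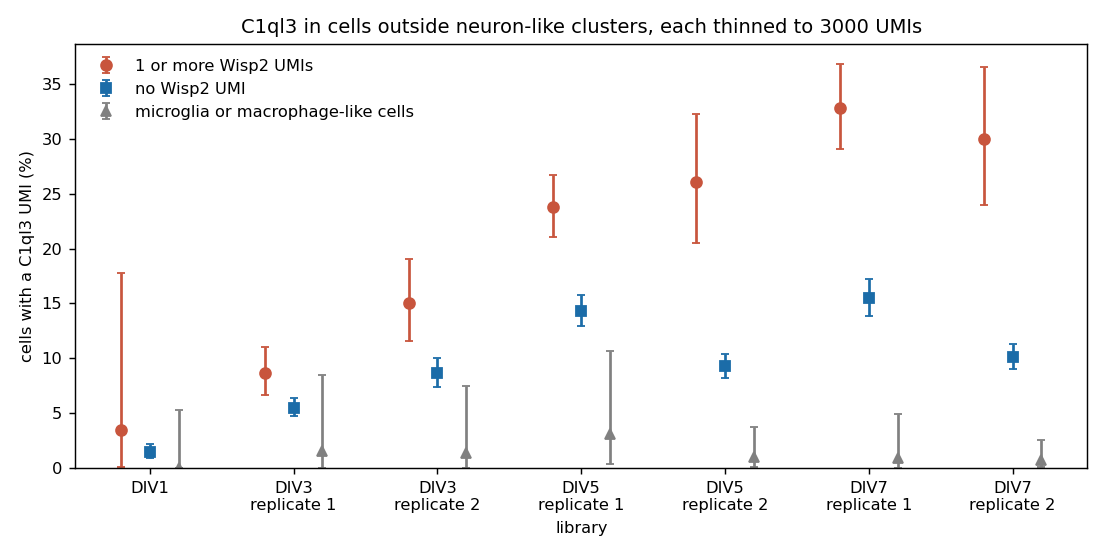
Share of cells outside neuron-like clusters with a C1ql3 UMI, each cell thinned to 3000 UMIs, by library; circles are cells with a Wisp2 UMI, squares cells without, triangles microglia or macrophage-like cells, and bars exact 95% binomial intervals. At DIV7 both points of Wisp2-positive cells (the higher at 32.8%) lie above those of Wisp2-negative cells (15.5% and 10.1%).

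When the Wisp2 clusters were replaced by all non-neuronal cells with 2 or more Wisp2 UMIs, C1ql3 measured 30.3 and 59.1 CPM at DIV3, 107 and 119 CPM at DIV5, and 159 and 231 CPM at DIV7. The DIV7 to DIV3 log2 fold change was then 1.97. Both C1ql3 and Wisp2-positive cells were chosen with earlier results in view, and this set shares cells with the Wisp2 clusters. The value is therefore a description, given with no p-value. Cycling cells, which include many Wisp2-positive cells, ran from 3.35 CPM at DIV1 (7 UMIs, interval 1.35 to 6.89) through 23.9 and 51.9 CPM at DIV3 and 90.0 and 81.2 CPM at DIV5 to 139 and 159 CPM at DIV7. No test was made in that class. Different cycling clusters held most of these cells, 1 almost only in DIV3 replicate 1 and another in DIV3 replicate 2 and at the later days. In the latter cluster C1ql3 stood at 52.5 CPM in DIV3 replicate 2 and averaged 104 CPM at DIV5 and 152 CPM at DIV7.

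In radial glia or astrocyte-like cells C1ql3 also rose. It measured 6.45 CPM at DIV1 (interval 4.81 to 8.49), 12.7 and 22.6 CPM at DIV3, 46.0 and 53.4 CPM at DIV5, and 106 and 58.6 CPM at DIV7. Each later day lay above each earlier one. The DIV7 to DIV3 log2 fold change was 2.10 ± 0.43 (SE; edgeR adjusted p 0.00387, 11650 genes tested), and 1.83 with an adjusted p of 0.0185 in edgeR without DIV3 replicate 1. In this class 11.9% of genes rose, 10.4% fell and 22.3% were called in either direction. Most DIV1 and DIV3 cells of the class belonged to a cluster led by Vgf and Hes5, and most DIV5 and DIV7 cells to 2 clusters led by Slc1a2, Aldoc and Gfap. The class's own marker list summed to 8423 and 10454 CPM at DIV3 and to 39858 and 47055 CPM at DIV7. How far this shift of cell states takes part in the C1ql3 change was not tested. At a finer clustering, which splits the class differently, the fold change was 1.09 and did not pass.

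Over all classes with 2 or more libraries, the C1ql3 level pooled over libraries was highest in dentate-like cells (180 CPM, libraries 23.3 to 677), the Wisp2 clusters (127 CPM, libraries 62.5 to 211) and unnamed cluster 17 (72.7 CPM, libraries 25.1 to 162). Cycling (54.7 CPM, libraries 3.35 to 159), radial glia or astrocyte-like (46.8 CPM, 6.45 to 106), ciliated (36.4 CPM, 14.2 to 53.1), unnamed cluster 13 (34.8 CPM, 34.0 to 73.7), oligodendrocyte lineage-like (30.3 CPM, 18.5 to 45.1) and pyramidal-like cells (29.5 CPM, 3.11 to 62.4) came next. GABAergic (21.7 CPM, libraries 0 to 51.7), choroid plexus-like (20.8 CPM, 5.63 to 32.1), Cajal-Retzius-like (11.3 CPM, 0 to 18.6), microglia-like (6.09 CPM, 1.15 to 8.81), fibroblast-like (2.82 CPM, 0.575 to 5.95), mural (1.32 CPM, 0.465 to 2.70) and neuroblast-like cells (0.77 CPM, 0 to 4.57) were lowest. Library ranges of neighbours in this order overlapped throughout, and a pooled level depends on the days that supply the cells. The GABAergic one rests on DIV1, with 98 of its 108 UMIs, and its DIV5 libraries lay below those of choroid plexus-like cells (30.7 and 26.2 CPM).

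The C1ql3 changes from DIV3 to DIV7 were of unequal size in the fits. The fitted difference was -1.52 ± 0.31 (log2, SE) for the Wisp2 clusters minus glutamatergic neuron-like cells, and -1.22 without DIV3 replicate 1. For dentate-like minus pyramidal-like cells it was 1.30 ± 0.31, 1.29 without DIV3 replicate 1 and 0.83 without DIV7 replicate 1. Both contain the neuronal change on which C1ql3 had been noticed. In the second difference Nptxr stood at -0.75 ± 0.25 and Cbln1 at -1.63 ± 0.58, on the other side of 0.

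C1ql1, known as the climbing fibre organiser of the cerebellum, was mostly non-neuronal in these cultures after DIV1. Of its UMIs, 36.9% were in radial glia or astrocyte-like cells and 16.6% in the Wisp2 clusters. DIV7 replicate 2 supplied 3128 of the 4967 radial glia or astrocyte-like UMIs, and the share was 19.0% without that library. By library it ran from 0.452% in DIV3 replicate 1, where unnamed cluster 13 held 54.0%, to 83.2% in DIV7 replicate 2. Without DIV5 replicate 1 the share of the Wisp2 clusters was 10.5%. In radial glia or astrocyte-like cells it measured 2.40 CPM at DIV1 (interval 1.45 to 3.75), 35.0 and 24.8 CPM at DIV3, 232 and 104 CPM at DIV5, and 300 and 216 CPM at DIV7. DIV1 was the lowest, both DIV3 libraries were below all later ones, and DIV5 and DIV7 overlapped. Day means were 29.9 ± 7.24, 168 ± 90.5 and 258 ± 59.4 CPM (SD, n = 2 libraries each). C1ql1 rose from DIV3 to DIV7 by 3.22 ± 0.42 on the log2 scale (edgeR adjusted p 0.000335), and by 3.36 without DIV3 replicate 1 (edgeR adjusted p 0.00204). The shift of clusters given for C1ql3 in this class applies here too, and at the finer clustering the change was 1.32 and did not pass.

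Unnamed cluster 17, led by Rgs5, Padi2 and Ptx3 and with C1ql1 among its 10 leading genes, had the highest pooled C1ql1 level (188 CPM, libraries 56.4 to 298). Its library range overlapped that of radial glia or astrocyte-like cells (2.40 to 300 CPM). In the Wisp2 clusters C1ql1 stood at 14.2 and 9.19 CPM at DIV3, 70.1 and 22.0 CPM at DIV5, and 78.9 and 33.2 CPM at DIV7. The first of these values rests on 5 UMIs. At DIV5 and DIV7 replicate 1 was above replicate 2, and the 4 libraries were above both DIV3 libraries. Its log2 fold change of 2.42 ± 0.83 from DIV3 to DIV7 did not pass (edgeR adjusted p 0.112). With the replicate number as a block it was 1.78 and passed (edgeR adjusted p 4.12e-09). Glutamatergic neuron-like cells had 14.2 CPM in DIV3 replicate 1 and 0.577 to 5.72 CPM in the 6 other libraries. Microglia-like cells, which should lack the gene, had 1.29 CPM (2 UMIs) in DIV3 replicate 1 and 0 to 19.5 CPM over all libraries. The neuronal value of DIV3 replicate 1 was higher than the microglia-like value of its own library, which rests on 2 UMIs. What the neuronal value comes from was not tested. Cajal-Retzius-like cells, early-born neurons of the marginal zone, held 321 of the 638 C1ql1 UMIs of neuron-like clusters. They stood at 9.93 CPM at DIV1, 219 and 23.99 CPM at DIV5 and 180 CPM in DIV7 replicate 1, far apart between the DIV5 libraries.

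The cerebellins had low counts and were mostly found in neuron-like clusters. Cbln1, which joins neurexins to delta receptors, was found in glutamatergic neuron-like cells at 6.35 CPM at DIV1 (interval 4.91 to 8.07), 6.37 and 6.21 CPM at DIV3, 14.1 and 14.0 CPM at DIV5, and 18.7 and 18.4 CPM at DIV7. The 3 later days did not overlap, and DIV1 lay beside DIV3. Pyramidal-like neurons held 64.2% of its UMIs, at 4.60 and 6.55 CPM at DIV3 and 21.7 and 20.3 CPM at DIV7. Dentate-like neurons had 9.54 and 4.43 CPM at DIV3 and 11.0 and 5.13 CPM at DIV7, which overlap. Pyramidal-like and dentate-like libraries ranged over 4.60 to 21.7 and 4.41 to 11.0 CPM, so these neighbours in the order overlap.

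Cbln2 was found mainly in GABAergic neuron-like cells, which held 48.7% of its 392 UMIs. It measured 31.1 CPM at DIV1 (interval 23.7 to 40.1), 20.8 and 45.8 CPM at DIV3, 52.8 and 39.8 CPM at DIV5, and 47.8 and 31.8 CPM at DIV7. The days overlapped, and the DIV7 to DIV3 log2 fold change of 0.43 ± 0.48 did not pass (edgeR adjusted p 0.679, 8562 genes tested). The next class, oligodendrocyte lineage-like cells, ranged from 1.07 to 6.94 CPM over 6 libraries, below every GABAergic library.

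Cbln4 was also highest in GABAergic neuron-like cells, with 52 of its 122 UMIs there and 0 UMIs in dentate-like neurons. It measured 3.69 CPM at DIV1 (7 UMIs, interval 1.48 to 7.60), 0 and 3.82 CPM at DIV3, 9.82 and 19.9 CPM at DIV5, and 24.7 and 15.9 CPM at DIV7. The 0 UMIs of DIV3 replicate 1 allow up to 10.4 CPM, above 1 of the DIV5 values. Over the day, DIV3 had 1 UMI and DIV7 had 20, a ratio of 11.9 (exact 95% interval 1.91 to 495, counting error only). The fitted log2 fold change of 3.52 ± 1.18 did not pass (edgeR adjusted p 0.117).

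**Figure D4:**
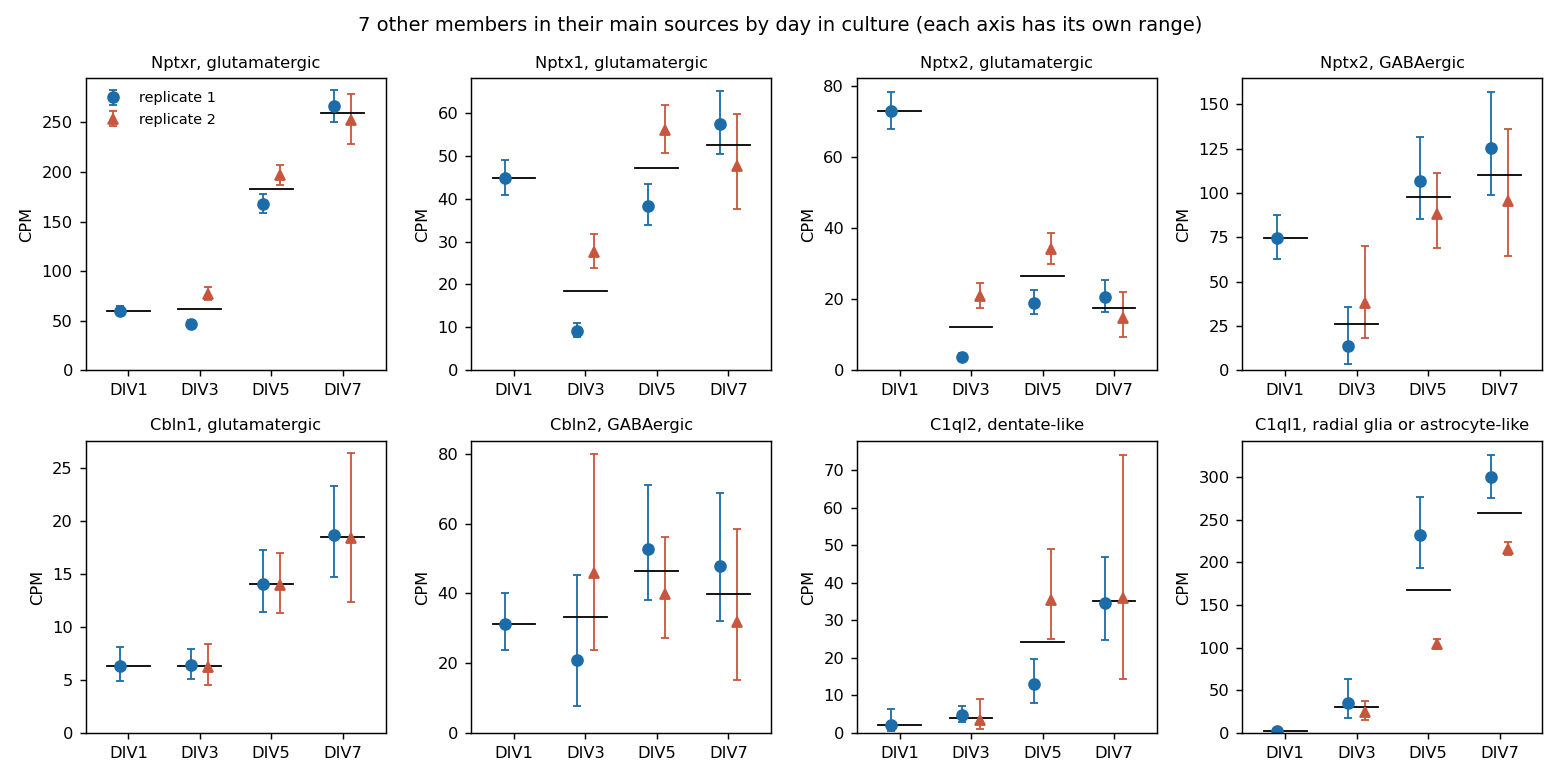
CPM of 7 members by day in their main sources (each axis has its own range); points are libraries with exact 95% Poisson intervals, and bars are day means. Nptxr and Cbln1 in glutamatergic neuron-like cells run upward after DIV3, Nptx2 in glutamatergic neuron-like cells is highest at DIV1 (73.0), and Cbln2 overlaps between days.

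Nptxr, the membrane-anchored pentraxin, had 71.6% of its UMIs in neuron-like clusters. In glutamatergic neuron-like cells it measured 60.2 CPM at DIV1 (interval 55.6 to 65.1), 46.5 and 76.9 CPM at DIV3, 168 and 197 CPM at DIV5, and 266 and 252 CPM at DIV7. DIV1 lay between the DIV3 libraries, and DIV3, DIV5 and DIV7 did not overlap. Day means were 61.7 ± 21.5, 182 ± 20.2 and 259 ± 9.90 CPM (SD, n = 2 libraries each). GABAergic neuron-like cells were at 65.4 CPM at DIV1 (interval 54.4 to 77.9), 20.8 and 61.1 CPM at DIV3, 62.6 and 64.7 CPM at DIV5, and 66.0 and 66.7 CPM at DIV7, so that only DIV3 replicate 1, with 6 UMIs, was well below the others. Cajal-Retzius-like cells had 94.3 CPM at DIV1, 96.7 and 65.4 CPM at DIV5 and 58.6 CPM in DIV7 replicate 1. Among neuron classes, library ranges overlapped for each pair of neighbours from pyramidal-like (49.5 to 315 CPM) to GABAergic (20.8 to 66.7 CPM).

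In the Wisp2 clusters Nptxr was low but rose, from 2.84 and 2.77 CPM at DIV3 to 8.59 and 8.61 CPM at DIV5 and 19.4 and 11.2 CPM at DIV7. No 2 days overlapped. The DIV7 to DIV3 log2 fold change was 2.36 ± 0.39 (edgeR adjusted p 0.00147), and 2.35 with an adjusted p of 0.00537 in edgeR without DIV3 replicate 1. The call rests on DIV3 replicate 2, since it was lost without that library, which held 28 of the 29 UMIs of the day. The fitted difference from the change in glutamatergic neuron-like cells was 0.55 ± 0.37 on the log2 scale.

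Nptx1, a secreted pentraxin, measured 44.8 CPM in glutamatergic neuron-like cells at DIV1 (interval 40.8 to 49.1), 9.24 and 27.6 CPM at DIV3, 38.4 and 56.0 CPM at DIV5, and 57.4 and 47.7 CPM at DIV7. Both DIV3 libraries were below the 5 others, which overlapped. Cajal-Retzius-like cells ranged from 32.7 to 94.6 CPM over 4 libraries and pyramidal-like cells from 9.45 to 67.5 CPM. Mural-like cells had 55.2 CPM at DIV1 (105 UMIs, interval 45.1 to 66.8) but only 3 UMIs in the 6 later libraries together. In the Wisp2 clusters Nptx1 went from 0 and 1.19 CPM at DIV3 (0 UMIs allow up to 8.52 CPM in replicate 1) to 2.01 and 2.07 CPM at DIV5 and 5.29 and 3.94 CPM at DIV7. It rose there by 1.93 ± 0.53 on the log2 scale (edgeR adjusted p 0.0208), and by 1.83 without DIV3 replicate 1 (edgeR adjusted p 0.032). The call was lost with DESeq2 (adjusted p 0.243), without DIV7 replicate 1 (1.73) and without DIV3 replicate 2, where the fitted value of 7.98 is set against 0 UMIs.

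Nptx2, the activity-regulated pentraxin, was highest in the GABAergic neuron-like class at DIV5 and DIV7. At DIV1 pyramidal-like cells had 77.3 CPM beside 74.3 CPM in GABAergic cells, and the intervals overlapped. In GABAergic cells it measured 74.3 CPM at DIV1 (interval 62.6 to 87.7), 13.9 and 38.2 CPM at DIV3, 107 and 88.3 CPM at DIV5, and 125 and 95.3 CPM at DIV7. Both DIV3 libraries, with 14 UMIs in all, were below the others. Nptx2 rose from DIV3 to DIV7 by 2.23 ± 0.44 on the log2 scale (edgeR adjusted p 0.00689), the only call among 6 members tested in this class, where 1.80% of genes rose, 0.619% fell and 2.42% were called in either direction. Without DIV3 replicate 1 the change was 1.68 and did not pass (edgeR adjusted p 0.14), and without DIV7 replicate 1 it was 2.03 and did not pass. In the same sums the radial glia or astrocyte list went from 677 and 718 CPM at DIV3 to 2740 and 2833 CPM at DIV7, and its part was not tested. Nptx2 itself was at 2.21 to 22.3 CPM in radial glia or astrocyte-like cells.

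In glutamatergic neuron-like cells Nptx2 was highest at DIV1, with 73.0 CPM (interval 67.9 to 78.3). It measured 3.59 and 20.8 CPM at DIV3, 18.9 and 34.0 CPM at DIV5, and 20.6 and 14.6 CPM at DIV7, which overlap. In radial glia or astrocyte-like cells Nptx2 fell, from 22.3 and 11.3 CPM at DIV3 to 3.68 and 3.38 CPM at DIV5 and 3.24 and 2.21 CPM at DIV7, beside 15.2 CPM at DIV1 (interval 12.6 to 18.2). Both DIV3 libraries, with 17 UMIs in all, were above the later ones. The log2 fold change from DIV3 to DIV7 was -2.52 ± 0.58 (edgeR adjusted p 0.00798), and -2.16 with an adjusted p of 0.0473 in edgeR without DIV3 replicate 1. The call was lost without DIV7 replicate 2 (-2.22) and at the finer clustering (-1.53). The shift of clusters given for C1ql3 in this class applies here too. Nptx2 averaged 18.1 CPM at DIV3 in the cluster led by Vgf and Hes5. At DIV7 it averaged 1.15 and 3.37 CPM in the 2 clusters led by Slc1a2, Aldoc and Gfap. The part of this shift in the fall was not tested. In the Wisp2 clusters Nptx2 had a log2 fold change of -1.59 ± 0.61 that did not pass (edgeR adjusted p 0.0788), and passed with the replicate number as a block (-1.60, edgeR adjusted p 0.0189).

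**Figure D5:**
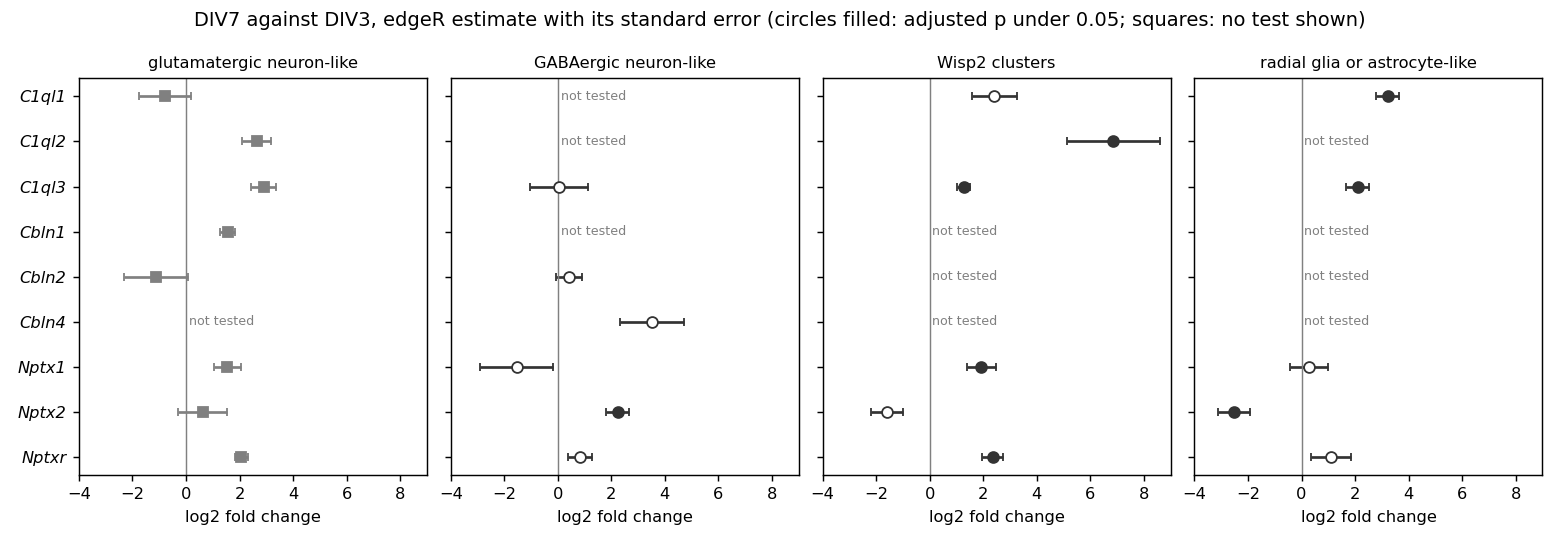
Log2 fold change from DIV3 to DIV7 of each gene in 4 cell classes, as the edgeR estimate with its standard error; filled circles have an adjusted p under 0.05, open circles do not, and grey squares are given as description. C1ql3 is filled in both non-neuronal classes, and Nptx2 is filled on opposite sides of 0 in GABAergic neuron-like cells (2.23) and radial glia or astrocyte-like cells (-2.52). The radial glia or astrocyte-like cells belonged mostly to different clusters at DIV3 and at DIV7.

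From DIV3 to DIV7 in glutamatergic neuron-like cells, the contrast on which C1ql3 and Nptxr had been noticed, log2 fold changes were 2.91 ± 0.47 for C1ql3, 2.64 ± 0.55 for C1ql2, 2.07 ± 0.25 for Nptxr, 1.55 ± 0.29 for Cbln1 and 1.55 ± 0.49 for Nptx1 (SE). They were 0.62 ± 0.91 for Nptx2, -0.79 ± 0.97 for C1ql1 and -1.12 ± 1.20 for Cbln2. Cbln4 was too low to be tested. C1ql3, C1ql2, Nptxr and Cbln1 passed edgeR's test after adjustment, 4 of 8 members tested, beside 4.88% of 13247 genes that rose, 2.41% that fell and 7.29% called in either direction. Nothing is read from this count. The median over the 8 members was 1.55, beside -0.03 over all genes. Without DIV3 replicate 1 the values were 2.44 for C1ql3, which no longer passed, 3.51 for C1ql2, 1.77 for Nptxr and 1.59 for Cbln1, and C1ql1 changed sign, to 1.70. With the replicate number as a block Nptx1 passed too (1.73), and with a stricter cell filter none of the 8 passed.

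From DIV3 to DIV5, a comparison that shares the DIV3 libraries with the last, the values are again a description. They were 1.55 ± 0.25 for Nptxr, 2.36 ± 0.46 for C1ql3, 2.13 ± 0.53 for C1ql2 and 1.14 ± 0.27 for Cbln1. Nptxr passed edgeR's test after adjustment, 1 of 8 members, beside 0.498% of 13247 genes that rose, 0.0604% that fell and 0.559% called in either direction, and it did not pass without DIV3 replicate 1 (1.24). With the replicate number as a block C1ql3, C1ql2 and Cbln1 passed too. From DIV5 to DIV7 no member was called, and 0% of genes rose or fell by edgeR's adjusted p. At an unadjusted p under 0.05 there were 671 genes, and DESeq2 called 4. C1ql3 had 0.55 ± 0.43, C1ql2 0.51 ± 0.50, Cbln1 0.41 ± 0.28 and Nptxr 0.52 ± 0.24 there on the log2 scale.

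In the Wisp2 clusters 4 of 6 members tested rose from DIV3 to DIV7 (C1ql2, C1ql3, Nptx1 and Nptxr), beside 12.2% of all genes that rose and 22.7% called in either direction, with a median log2 fold change of 2.14 beside 0.07 over all genes. C1ql2 had 0 UMIs in both DIV3 libraries and 29 UMIs at DIV7. This is at least 6.85-fold higher against a floor of 3 UMIs over the day. With 0 UMIs at DIV3, C1ql2 passed the filter on low counts through its later days alone. Its edgeR adjusted p of 0.0152 is therefore not independent of how it was selected for testing. The count of 4 and the median of 2.14 include it. Leaving out DIV3 replicate 2 removed this call, while leaving out DIV3 replicate 1 did not. In radial glia or astrocyte-like cells 2 of 5 rose (C1ql1 and C1ql3) and Nptx2 fell, beside 11.9% of all genes that rose and 10.4% that fell, with a median of 1.10 beside 0.10 over all genes. Nptx1 (0.29 ± 0.70) and Nptxr (1.10 ± 0.75) did not pass there. The shift of clusters within this class applies to all of these values.

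The receptors and partners of these proteins were counted from a list of 3 groups and of the remaining family members. In glutamatergic neuron-like cells, from DIV3 to DIV7, Adgrb3, the receptor of C1q-like proteins (1.59 ± 0.24, edgeR adjusted p 0.0053), and its relative Adgrb2 (1.16 ± 0.21, 0.012) rose among 6 partners of C1q-like proteins, and the 4 others did not pass. Of 7 partners of cerebellins Nrxn2 rose (0.92 ± 0.23, edgeR adjusted p 0.041). Of 5 targets and processing genes of pentraxins the AMPA receptor genes Gria3 (1.91 ± 0.32, edgeR adjusted p 0.0086) and Gria1 (0.85 ± 0.21, 0.037) rose. In all, 5 of 18 listed genes tested rose and 0 fell, beside 4.88% and 2.41% of all genes. Medians of the 3 groups were 0.89, 0.64 and 0.63 on the log2 scale, beside -0.03 over all genes. Of the remaining family members 1 was tested, at -0.42, and it did not pass. Without DIV3 replicate 1, a check added after these values were seen, Adgrb3 (1.39), Adgrb2 (1.01) and Gria3 (1.51) passed, and Nrxn2 (0.65, edgeR adjusted p 0.134) and Gria1 (0.81, 0.0938) did not. Adgrb3 was also the only listed gene called from DIV3 to DIV5 (1.44 ± 0.24, edgeR adjusted p 0.029), and it did not pass without that library (1.23, edgeR adjusted p 0.112).

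The same list was counted in the other classes. In the Wisp2 clusters Gria1 (2.46 ± 0.38), Nrxn3 (2.09 ± 0.37), the pentraxin Ptx3 (1.46 ± 0.29), Gria3 (1.25 ± 0.27), Nrxn2 (1.00 ± 0.28) and the protease Adam17 (0.78 ± 0.26) rose and Gria2 fell (-1.29 ± 0.26), with edgeR adjusted p from 0.000977 to 0.0432. These are 6 rising and 1 falling of 17 listed genes tested, beside 12.2% and 10.5% of all genes. Without DIV3 replicate 1 the values were 2.44 for Gria1, 1.96 for Nrxn3, 1.59 for Ptx3, 1.10 for Gria3 and -1.42 for Gria2. Nrxn2 (0.71) and Adam17 (0.65) did not pass without that library. In radial glia or astrocyte-like cells Nrxn3 (3.92 ± 0.74), Gria1 (3.66 ± 0.57), Grik2 (2.69 ± 0.62), Nrxn2 (2.48 ± 0.46), Adam17 (2.26 ± 0.46), Ptx3 (1.78 ± 0.35) and Neo1 (1.41 ± 0.35) rose, with edgeR adjusted p from 0.000853 to 0.0106. In all, 8 of 15 listed genes tested rose there, beside 11.9% of all genes. Without DIV3 replicate 1 the log2 fold changes of the 8 ran from 1.45 to 3.50. The shift of clusters given for C1ql3 in this class applies to them too, and its part was not tested. At the finer clustering far fewer genes of this class were called, as given in the last section. None was called in GABAergic neuron-like cells. The change of Adgrb3 was smaller in the Wisp2 clusters than in glutamatergic neuron-like cells (-1.29 ± 0.32, edgeR interaction adjusted p 0.00887, and -1.25 without DIV3 replicate 1, adjusted p 0.00931). In that test 3.94% of 14079 genes were called above 0, 4.57% below and 8.52% in either direction. It was also smaller in dentate-like than in pyramidal-like neurons (-1.30 ± 0.36, edgeR interaction adjusted p 0.0168), a call lost without DIV3 replicate 1 (-1.23, adjusted p 0.199 in edgeR). There 2.77% of 11303 genes were called above 0, 1.25% below and 4.02% in either direction.

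Genes with the most similar profile over 16 classes were named by Pearson r of log2(CPM + 1), as a description over classes that share libraries and depth. For C1ql3 they were Fgfbp3 (0.86), Cspg5 (0.86) and Ctnnbip1 (0.85). For C1ql1 they were Ncoa4 (0.91), Xrcc5 (0.91) and Efhd1 (0.90), and for C1ql2 Zfand5 (0.76), Swsap1 (0.75) and Letm2 (0.74). The cerebellins lay closest to Sez6l (0.98), Slitrk3 (0.97) and Pcdh15 (0.97) for Cbln1, to Htr3a (0.98), Adarb2 (0.96) and Sp9 (0.96) for Cbln2, and to Sst (0.96), Dlx6os1 (0.95) and Adarb2 (0.95) for Cbln4. Among the pentraxins, Nptx1 lay closest to Rgs4 (0.88), Ap2a2 (0.83) and Raph1 (0.83), Nptx2 to Sstr1 (0.92), Vgf (0.92) and Rims4 (0.91), and Nptxr to Rapgefl1 (0.95), Lmtk3 (0.95) and Grin2a (0.95). The named genes had to reach 20 CPM in 1 class. C1ql2 (12.1 CPM in its highest class), Cbln1 (10.3 CPM) and Cbln4 (10.4 CPM) did not, so their r values rest on low counts.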

How the data were processed

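Dissociated hippocampal cultures were measured at 4 ages by single-cell 3′ RNA sequencing with 10x Genomics v2 chemistry, per the labels' protocols. The deposited values are raw UMI counts per gene and cell. Cell Ranger 4.0.0 and the mouse build mm9 are named in the submitters' processing notes, while the matrix headers give software version 3.0.2; the annotation is not given in the sources used here. Members, marker lists and partner lists were chosen with earlier results of these data known.

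A cell was used if it had 500 or more genes detected and if mitochondrial genes gave no more than 10% of its UMIs. Scrublet, as run through scanpy 1.11.5, called 178 of 28050 scored barcodes (0.635%) doublets, and 177 of the kept cells were removed. Counts were scaled per cell, and 2000 variable genes, 30 principal components, 15 neighbours and Leiden clustering (igraph 0.11.9, resolution 1) gave clusters. These clusters were named from fixed marker lists by a scoring rule that was set after they had been seen. A cluster with Wisp2 among its 10 leading genes was named by it, ahead of the scoring rule. A dentate-like cluster had more Prox1 than Neurod6. The median depth of the cells used was 7059 to 20128.5 UMIs per library.

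UMI counts were summed per library and class, with 20 or more cells required. Levels (CPM) are counts scaled to a class total of 1000000. Changes between days were tested with edgeR 4.0.16 in R 4.3.3 (TMM scaling, filterByExpr, robust quasi-likelihood F test, two-sided), with Benjamini-Hochberg adjustment over all genes tested and a threshold of 0.05. DIV1, a single library, has no replicate check and enters no contrast. Where it had 20 or more cells of a class, it was part of the main fit of that class. It then took part in the scaling and the filter on low counts. A difference between 2 classes was tested as an interaction with the library as a block. The genes named are the 9 members, whatever their values, and the partners past the test. The value of 1 partner gene is not reported here. Samples with the same replicate number deviated together: the correlation of their deviations from the day means was 0.493, 0.279 and 0.486 in glutamatergic neuron-like cells and 0.345, 0.302 and 0.658 in the Wisp2 clusters. The labels do not say what a number marks. Alternatives were DESeq2 1.42.0, other scaling, no filter on low counts, leaving out each library, the replicate block, other doublet and cell filters (1000 genes, 5% mitochondrial UMIs), Leiden resolution 2 and other cell sets. The test script was tested on simulated data. Shares of cells came from single draws of 3000 UMIs per cell, and shallower cells were left out.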

Additional observations from a re-analysis of the deposited data

Results flagged for a closer look

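The change of C1ql3 from DIV3 to DIV7 was of different size between cell classes in the fit of the difference itself. The difference was -1.52 on the log2 scale for the Wisp2 clusters minus glutamatergic neuron-like cells. At DIV3 the neurons stood at 10.4 and 22.7 CPM and the Wisp2 clusters at 62.5 and 78.9 CPM. The difference was 1.30 for dentate-like minus pyramidal-like neurons. Both contain the neuronal change that had drawn attention to C1ql3, so they are descriptions with no independent test, and what they come from was not tested.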

How the results depend on the processing

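Of the tests of single members that had passed, 208 kept their call under an alternative and 45 lost it; of those that had not, 42 gained one and 25 changed sign without passing either way. C1ql3 in the Wisp2 clusters passed in all 17 settings, with log2 fold changes that kept their sign. These settings share libraries, and C1ql3 was a leading gene of 1 of these clusters, so they are not independent support. The counts of calls kept and lost also include the glutamatergic changes from DIV3 and the C1ql3 differences between classes. Those are descriptions, so nothing is read from these counts. The cells of a day and library limit every value: at DIV3 the Wisp2 clusters had 26 cells in 1 library and 710 in the other, and GABAergic sums rest on 26 to 84 cells after DIV1. The cause of the changes below was not tested.

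Counts of genes called moved by more than 1.5 times as follows. Glutamatergic, DIV7 against DIV3 (966 genes): 2192 without a filter on low counts, 2797 with the replicate block, 1 with the stricter cell filter, 417 in dentate-like cells alone, and 115 to 2803 when a library was left out (356 without DIV3 replicate 1, 2803 without DIV3 replicate 2). DIV5 against DIV3 (74 genes): 207 with DESeq2, 29 at resolution 2, 683 without the filter, 7 with only the 2 days, 692 with the block, 0 with the stricter filter, and 5 to 1302. DIV7 against DIV5 (0 genes): 4 with DESeq2, 66 without the filter, 16 with the block, and 0 to 1. Wisp2 clusters (2999 genes): 1595 with DESeq2, 1775 at resolution 2, 4782 with the block, 774 with the stricter filter, and 1053 to 3529. Radial glia or astrocyte-like (2602 genes): 12 at resolution 2, 568 with the stricter filter, and 1052 to 3099. GABAergic (207 genes): 136 with DESeq2, 460 without the filter, 460 with the block, and 35 to 430, while the stricter filter could not be fitted. Wisp2 clusters minus glutamatergic (1199 genes): 602 with DESeq2, 758 at resolution 2, 178 with the stricter filter, and 546 to 1431. Dentate-like minus pyramidal-like (454 genes): 123 with DESeq2, 260 at resolution 2, 26 with the stricter filter, and 97 to 520. The replicate block changed no call of a member other than those given with the results. The difference in the share of cells with a C1ql3 UMI between Wisp2-positive and Wisp2-negative cells was 12.1 percentage points thinned and 25.6 unthinned.

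Log2 values that changed sign, none of them past the test, were -0.040 for C1ql1 (DIV7 against DIV5, replicate block), -0.12 and -0.046 for C1ql3 in GABAergic cells (DESeq2, total-count scaling), -2.01 and -1.43 for Cbln1 in Wisp2 clusters minus glutamatergic (DESeq2, stricter filter), and, in dentate-like minus pyramidal-like, -0.045 for C1ql2 (resolution 2), 0.33 for Nptx1 and 1.07 for Nptx2 (stricter filter). Leaving out 1 library gave these ranges. In glutamatergic cells they were -1.61 to 1.70 for C1ql1 and -0.18 to 2.34 for Nptx2 (DIV7 against DIV3), -1.80 to 1.49 for C1ql1 and -0.41 to 1.59 for Cbln2 (DIV5 against DIV3), and -0.18 to 0.86 for C1ql2 and -0.074 to 0.48 for Nptx1 (DIV7 against DIV5). They were -2.03 to 6.40 for Nptx2 in the Wisp2 clusters, -0.29 to 8.74 for Nptx1 in radial glia or astrocyte-like cells, and -5.05 to 0.65 for C1ql3 and -0.025 to 1.05 for Cbln2 in GABAergic cells. In Wisp2 clusters minus glutamatergic they were -1.54 to 1.15 for Cbln1, -2.15 to 3.98 for Nptx2 and -0.015 to 0.80 for Nptxr, and in dentate-like minus pyramidal-like -0.89 to 0.035 for Nptx1 and -0.88 to 0.95 for Nptx2.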
